A study of Mus musculus with 12 samples.

Results

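The genes examined here encode acyltransferases, deacylases and readers of lysine acylation, and enzymes of acyl-CoA metabolism. Some of their proteins are known to place, remove or bind crotonyl groups on lysine, or to make or consume crotonyl-CoA, the acyl donor. The 36 genes were listed by function, among 21887 protein-coding genes of mouse chromosomes 1 to 19, X and Y. All 36 were found by symbol in the RefSeq annotation of GRCm38.p6. The list has 9 acyltransferases, 8 histone deacetylases (HDACs), 4 sirtuins, 9 readers and 6 acyl-CoA enzymes. For each gene, the peaks that fell in the gene or within 5 kb of its ends were taken from 2 peak lists.

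Both lists were made by ChIP-seq, the sequencing of DNA recovered by chromatin immunoprecipitation, from dorsal hippocampus of C57BL/6J mice, with a pan-Kcr antibody, raised to bind crotonylated lysine. In the learning library the mice had been trained in a spatial object recognition task, and in the homecage library they had stayed in their home cage. The labels of these 2 libraries give no age, sex, time after training or crotonate or saline dose, and do not say whether animals were pooled. The series holds 12 libraries, and its 8 single-nucleus libraries and 2 input libraries were not analysed here. Each condition has 1 antibody library, so the values below describe 2 libraries, no difference between conditions has a replicate check, and no p-value is given.

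Crotonylation is an acylation of lysine found on histones and other proteins, and histone crotonylation is known from active promoters. Acetyltransferases of the CBP and p300 kind also transfer crotonyl groups, class I HDACs and several sirtuins remove them, and YEATS and double PHD finger (DPF) domains bind them. The level of the mark is known to follow the supply of crotonyl-CoA, which is made from crotonate by the acyl-CoA synthetase Acss2 and within fatty acid and amino acid breakdown.

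The lists differ greatly in length. On the assembled chromosomes the learning list held 16002 peaks, which covered 5.62 Mb, and the homecage list held 331236, which covered 133 Mb. The files carry positions and widths without enrichment or read numbers, so the read depth is unknown and a missing peak does not show that the mark is missing. The peak names give a p-value limit of 0.01 and the files no q-value, so a single peak may also be a false call. Tissue is a mixture of cell types, and the lists do not show which cells carried a peak: a mark in few cells and a weak mark in many cannot be told apart. Of 16 genes that mark neurons, astrocytes, oligodendrocytes and microglia, all 16 had a homecage peak in the gene or its flanks. The share over all protein-coding genes was 90.5%. A learning peak was present at 5 of the 16, beside 30.9% of all genes. Gfap alone had a learning peak at a start, beside 16.2% of all genes, so the peak lists do not serve to check the tissue label.

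Starts are the first transcribed bases listed by RefSeq, and a peak was counted at a start when it reached within 1 kb of it. Listed starts were used for 32 of the 36 genes and 17492 of all genes, several starts for some, and for the other genes both gene ends stood in for the start, which includes the 3' end. The sequences below are shown because 3 of the genes, Cdyl, Hdac7 and Mllt3, have an outer start and an inner start with different peaks, and because Ep300 and Sirt1 are a writer and an eraser with peaks of both lists at a CpG-rich start. Each is the stretch before a start, 5′ to 3′ along the gene, with CpG dinucleotides in capitals, from RefSeq's GRCm38.p6. Bases inside the annotated gene were left out at the outer starts.
Ep300 outer start, chr15:81585964-81586208, plus strand: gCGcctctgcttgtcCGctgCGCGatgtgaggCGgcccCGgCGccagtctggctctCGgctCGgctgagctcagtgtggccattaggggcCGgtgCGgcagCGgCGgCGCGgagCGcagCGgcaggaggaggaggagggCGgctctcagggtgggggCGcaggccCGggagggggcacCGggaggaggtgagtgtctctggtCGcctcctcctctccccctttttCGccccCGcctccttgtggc
Sirt1 outer start, chr10:63339036-63339285, minus strand: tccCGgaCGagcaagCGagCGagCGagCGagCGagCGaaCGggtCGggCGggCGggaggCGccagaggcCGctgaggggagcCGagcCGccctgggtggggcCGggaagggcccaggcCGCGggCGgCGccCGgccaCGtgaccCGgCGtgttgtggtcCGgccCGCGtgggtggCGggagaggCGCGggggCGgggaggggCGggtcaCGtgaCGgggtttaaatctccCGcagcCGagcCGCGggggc
Cdyl outer start, chr13:35659612-35659817, plus strand: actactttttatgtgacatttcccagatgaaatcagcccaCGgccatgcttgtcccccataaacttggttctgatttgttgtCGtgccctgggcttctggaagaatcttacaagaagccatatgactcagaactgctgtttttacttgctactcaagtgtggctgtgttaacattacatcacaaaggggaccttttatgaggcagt
Cdyl inner start, chr13:35741152-35741401, plus strand: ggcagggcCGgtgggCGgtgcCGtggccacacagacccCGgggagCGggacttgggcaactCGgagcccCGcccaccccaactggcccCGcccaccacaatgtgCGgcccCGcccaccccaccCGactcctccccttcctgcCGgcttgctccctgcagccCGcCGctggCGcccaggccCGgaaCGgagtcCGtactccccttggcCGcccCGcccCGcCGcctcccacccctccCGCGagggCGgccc
Hdac7 outer start, chr15:97844503-97844752, minus strand: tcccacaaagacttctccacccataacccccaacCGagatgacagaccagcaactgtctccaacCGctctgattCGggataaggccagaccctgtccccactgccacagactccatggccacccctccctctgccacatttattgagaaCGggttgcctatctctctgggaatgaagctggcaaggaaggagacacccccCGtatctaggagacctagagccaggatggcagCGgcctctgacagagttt
Hdac7 inner start, chr15:97831768-97832017, minus strand: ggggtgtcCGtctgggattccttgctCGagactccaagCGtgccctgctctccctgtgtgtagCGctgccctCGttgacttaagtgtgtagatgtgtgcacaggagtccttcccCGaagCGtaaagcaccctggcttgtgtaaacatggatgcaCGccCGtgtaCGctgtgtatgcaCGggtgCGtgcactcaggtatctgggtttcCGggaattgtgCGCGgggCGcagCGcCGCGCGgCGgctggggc
Mllt3 outer start, chr4:88033408-88033657, minus strand: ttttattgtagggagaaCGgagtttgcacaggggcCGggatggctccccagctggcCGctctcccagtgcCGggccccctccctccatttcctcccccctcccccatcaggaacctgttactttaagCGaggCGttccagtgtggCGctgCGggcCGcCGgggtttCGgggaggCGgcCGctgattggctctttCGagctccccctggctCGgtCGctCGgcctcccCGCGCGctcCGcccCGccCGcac
Mllt3 inner start, chr4:87806324-87806573, minus strand: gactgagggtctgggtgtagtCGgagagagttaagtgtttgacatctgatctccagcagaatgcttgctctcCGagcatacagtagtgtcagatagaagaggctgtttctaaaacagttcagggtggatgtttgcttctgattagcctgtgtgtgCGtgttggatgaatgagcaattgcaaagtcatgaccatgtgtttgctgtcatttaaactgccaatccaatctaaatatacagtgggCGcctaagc

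The stretch before the inner start of Cdyl holds 25 CpGs and that before its outer start holds 2 (in the 250 bases before each start), and the learning and homecage start peaks of Cdyl lay at the inner start. Hdac7 had the same arrangement, with 21 CpGs before the inner start shown and 6 before the outer one. In Mllt3 the learning peak lay at the inner start, with 4 CpGs, and the homecage peaks lay at the outer start, with 23. The homecage list covered 245 of the 245 Ep300 bases shown, 198 of the 250 Sirt1 bases and all 250 of the Hdac7 inner bases. The learning list covered 100 of the Ep300 bases and 22 of those at the Mllt3 inner start.

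Peaks at the starts of the crotonylation genes were frequent in both lists. In the learning library, 17 of the 36 genes had a peak at a start (47.2%, exact Clopper-Pearson 95% interval 30.4 to 64.5%), beside 16.2% of all protein-coding genes. In the homecage library, 30 of 36 had one (83.3%, 67.2 to 93.6%), beside 53.1% of all genes. The intervals cover counting error alone and take the genes as independent. They do not cover the choice of the genes, which was made with earlier results of these data known. Learning start peaks were found at 7 of 9 acyltransferases, 4 of 8 HDACs, 2 of 4 sirtuins, 4 of 9 readers and 0 of 6 acyl-CoA enzymes. The last count allows a share of up to 45.9% by the same interval, and differences between the roles were not tested.

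**Figure D1:**
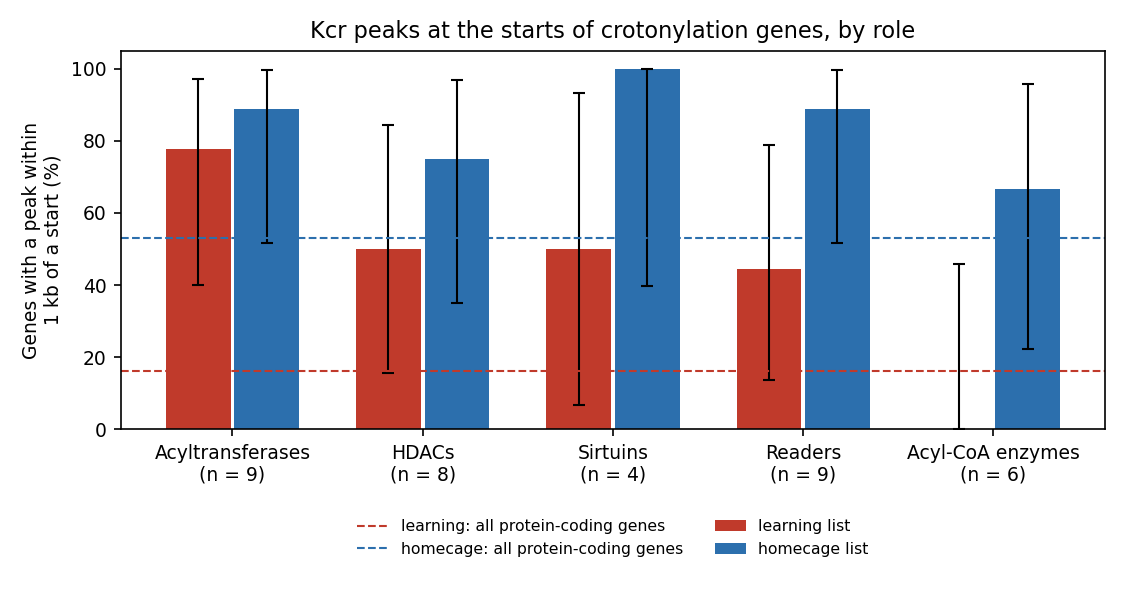
Share of genes in each role with a peak within 1 kb of a start, for the learning and homecage lists. Bars give the percent, error bars the exact 95% interval, and dashed lines the share over all protein-coding genes (16.2% learning, 53.1% homecage). The learning bars run from 77.8% at the acyltransferases to 0% at the acyl-CoA enzymes, with wide intervals.

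Both lists had a start peak at 16 of the 36 genes, beside 14.0% of all protein-coding genes. The homecage list alone had one at 14 genes, beside 39.1% of all. The learning list alone had one at 1 gene, Hdac9, beside 2.23% of all. The remaining 5 genes, Kat7, Hdac1, Dpf1, Acss2 and Gcdh, had no start peak in either list. Anywhere in the gene or its flanks, a learning peak was present at 24 genes (66.7%, 49.0 to 81.4%), beside 30.9% of all. A homecage peak was present at all 36 (90.3 to 100%), beside 90.5% of all. None of the 36 lies on chromosome X, which the share over all genes includes. Of the 40 further genes described below, 35 had a homecage peak. The 12 of the 36 genes with no learning peak were Kat8, Hdac1, Hdac3, Sirt3, Sirt6, Cdyl2, Yeats2, Dpf2, Acly, Acads, Acox3 and Gcdh.

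The count at starts depends on the width a peak must have. With peaks of at least 500 bp, 9 of the 36 genes had a learning start peak, beside 4.08% of all genes, and 15 had a homecage start peak, beside 24.9%. When the homecage list was shortened to its 16002 widest peaks, 8 of the 36 genes had a homecage start peak, beside 8.94% of all.

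Gene length also moved with these counts. The crotonylation genes had a median length of 32.8 kb (6.01 to 870 kb), beside 17.2 kb over all protein-coding genes. Of the crotonylation genes under 20 kb, 3 of 13 had a learning start peak, beside 11.5% of all genes of that length. From 20 to 100 kb, 8 of 14 had one, beside 20.6%, and over 100 kb 6 of 9, beside 25.3%. Homecage start peaks were present at 11 of 13, 11 of 14 and 8 of 9 crotonylation genes in these classes, beside 46.7%, 59.2% and 65.5%. In each length class the share in the crotonylation genes was above that of all genes, but the classes are small and these shares have no interval. Under 20 kb the learning share rests on 3 genes. The part of length in the counts was not tested.

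The acyltransferases transfer acetyl and, for some of them, crotonyl groups to lysine. Crebbp encodes CREB-binding protein, a coactivator of CREB, the transcription factor of activity-dependent gene expression. It had 3 learning peaks and 19 homecage peaks. Its learning start peak was 865 bp wide (chr16:4213036-4213900), covered the start and the whole of the 250 bases before it, and did not overlap a homecage peak. The nearest homecage peak, of 371 bp, began 324 bp away on the upstream side. A second learning peak of 788 bp lay 15800 bp into the gene and overlapped a homecage peak of 147 bp, the smallest width in that list, and another of 146 bp lay deeper. At the start and at this inside overlap the learning peak was the wider, although other homecage peaks of Crebbp reached 585 bp.

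Ep300, the paralogue of Crebbp, had 1 learning peak of 635 bp just upstream of its start (chr15:81585429-81586063). A homecage peak of 1501 bp spanned the start and overlapped it by 552 bp. The widest homecage peak of Ep300, 1693 bp, lay far inside the gene, 59218 bp from the start, where no learning peak was found. The paralogues Crebbp and Ep300 both had learning start peaks, and of the pair Ep300 had the homecage peak over the start.

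Kat2a and Kat2b encode the paralogous acetyltransferases GCN5 and PCAF. Kat2b had a learning peak of 713 bp (chr17:53566916-53567628), the widest of the 36 genes after those of Kat6b and Crebbp, which lay entirely within a homecage peak of 1784 bp. Kat2a had a learning peak of 557 bp and a homecage peak of 336 bp, both downstream of the start, with 291 bp in common. The learning peak covered 3.14% of the 17.7 kb searched at this short gene, the highest share among the 36 genes. The 250 bases before these starts hold 6 CpGs at Kat2b and 11 at Kat2a.

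Kat5, the catalytic subunit of the NuA4 (TIP60) complex, had 1 peak in each list. The learning peak of 564 bp (chr19:5609899-5610462) lay wholly inside the homecage peak of 1193 bp, and both covered a listed start. Kat6a and Kat6b are the paralogous MOZ and MORF enzymes, which carry a DPF domain themselves. Kat6b had the widest learning peak of all 36 genes, 874 bp (chr14:21499209-21500082), which overlapped a homecage peak of 692 bp at the start by 556 bp. A second Kat6b learning peak of 396 bp, deep in the gene, lay 1161 bp from the nearest homecage peak. Kat6a, with no start in the table used here, had a learning peak of 386 bp outside the gene, with its centre 474 bp from a gene end, over a homecage peak of 357 bp.

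The remaining acyltransferases, the MYST enzymes Kat7 (HBO1) and Kat8 (MOF), had no learning start peak. Kat7 had a learning peak of 146 bp in a flank, 997 bp from the nearest homecage peak. Kat8 had no learning peak and a homecage peak of 406 bp at its start. Among the 7 acyltransferases with a learning start peak, its width ran from 386 to 874 bp with a median of 635 bp, beside a median of 337 bp for the widest learning start peak over the 3553 genes that had one.

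**Figure D2:**
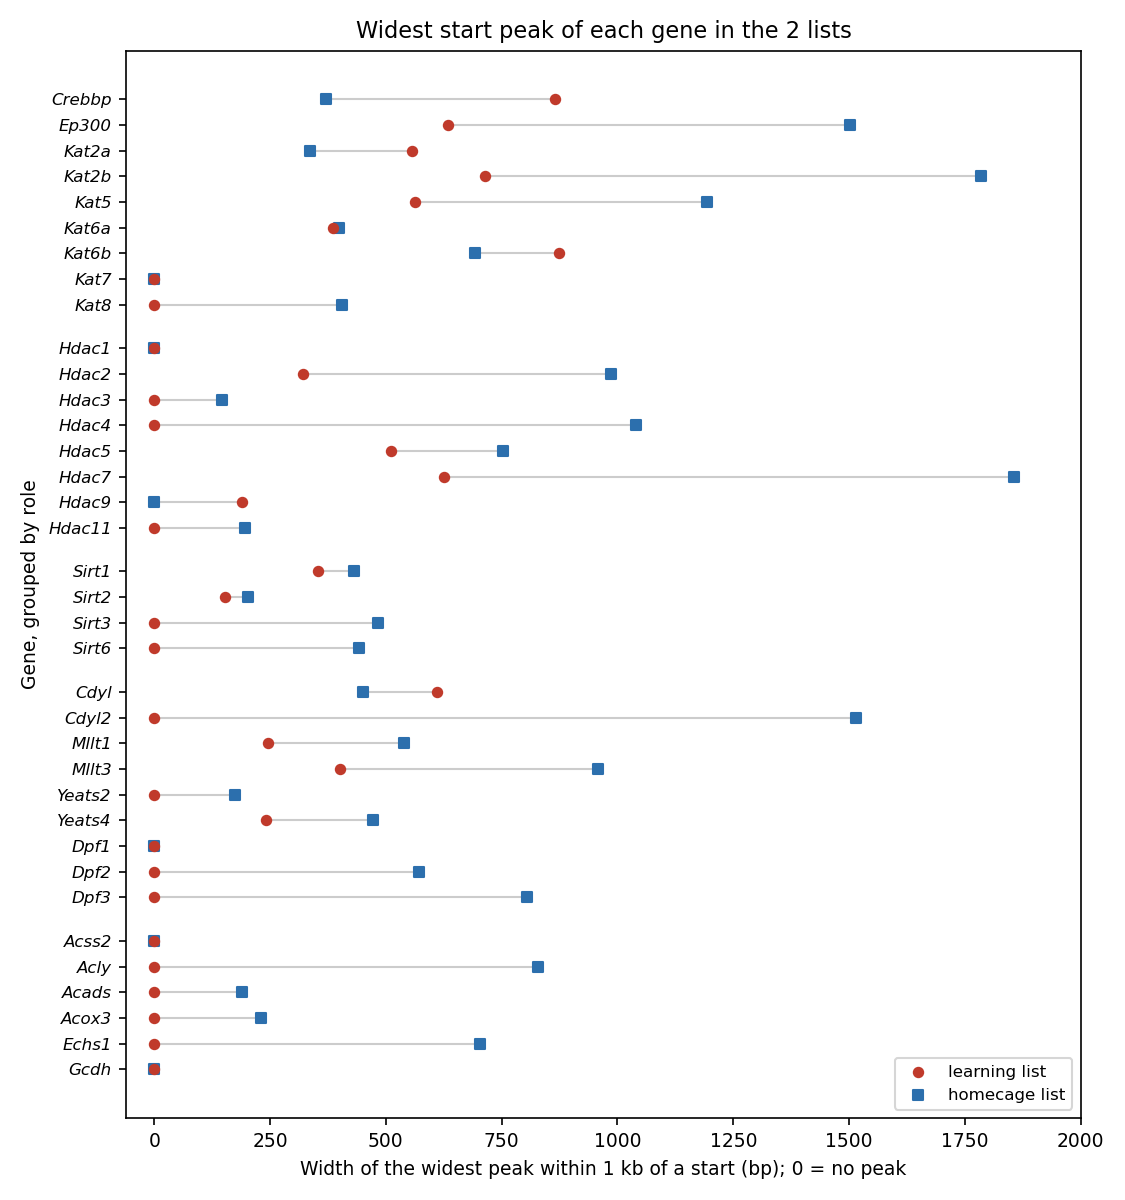
Width in bp of the widest peak within 1 kb of a start for each of the 36 genes, grouped by role, in the learning list (circles) and the homecage list (squares). A value of 0 means no such peak. The widest learning peak is the wider at 4 genes (Crebbp, Kat2a, Kat6b and Cdyl) among the 16 with both. The peaks of a gene in the lists need not overlap or lie at the same start. None of the 6 acyl-CoA enzymes shown has a learning start peak.

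At the 16 genes with a start peak in both lists, the widest homecage start peak was the wider at 12 and the widest learning start peak at 4. These peaks need not overlap, and at Mllt3 they lay at different starts. At Kat6a the homecage peak of 399 bp lay at the other gene end, and the one over the learning peak of 386 bp was 357 bp. At Sirt1 the homecage peak that overlapped the learning peak of 354 bp was 191 bp. Over all 3065 genes with both, the widest homecage start peak was the wider at 77.5%. The median widths at the 16 genes were 534 bp for learning and 616 bp for homecage peaks, beside 343 and 629 bp over all such genes. The learning start peaks of the crotonylation genes were thus wider at the median than those of all such genes, while the homecage widths were close. This did not hold in each role. Over all 17 learning start peaks, the medians were 635 bp for acyltransferases and 416 bp for HDACs. They were 324 bp for readers and 254 bp for sirtuins, beside 337 bp over all genes with a learning start peak. No test of these differences was made.

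Among the class I erasers Hdac1, Hdac2 and Hdac3, the learning list had a peak at Hdac2 alone. They are the HDACs best known to remove crotonyl groups from histones. Hdac2 had a learning peak of 321 bp directly downstream of its start (chr10:36974548-36974868) and a homecage peak of 985 bp across it, with 216 bp in common. Hdac3 had a homecage peak of 147 bp at a gene end, and Hdac1 had 4 homecage peaks, none of them at a gene end. Hdac1 and Hdac3 have no listed start here, so their values rest on gene ends.

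The class IIa enzymes Hdac4, Hdac5, Hdac7 and Hdac9 shuttle between nucleus and cytoplasm and bind MEF2 transcription factors. Hdac7 had the widest homecage peak of all 36 genes, 1856 bp (chr15:97830546-97832401), and the learning peak of 625 bp lay entirely within it. Both lay at a pair of inner starts about 13.0 and 12.7 kb into the gene, and neither list had a peak at the outer start or at another start 29.6 kb into the gene. Homecage peaks covered 14.8% of Hdac7 and its flanks. Hdac5 had a learning peak of 512 bp just downstream of its start and a homecage peak of 753 bp across it, with 328 bp in common, and a second learning peak of 273 bp inside the gene, 194 bp from the nearest homecage peak.

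Hdac4 had 48 homecage peaks and 2 learning peaks. The learning peaks, of 263 and 438 bp, lay inside the gene and did not overlap a homecage peak, though the second lay 4 bp from one. The homecage start peak of Hdac4 was 1039 bp wide. Hdac9 is the longest of the 36 genes, at 870 kb, and had the most peaks, 7 learning and 118 homecage. Its learning peaks ran from 174 to 697 bp, and 2 of the 7 overlapped a homecage peak. The learning start peak of Hdac9, 189 bp, lay at an inner start 388 kb from the gene's 5' edge, and no homecage peak was within 1 kb. Both listed starts of Hdac9 have few CpGs, 0 and 2. Hdac11, the class IV enzyme, had a learning peak of 372 bp in its upstream flank, 1311 bp from the nearest homecage peak, and a homecage start peak of 196 bp.

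The sirtuins are NAD-dependent deacylases. Sirt1 had a learning peak of 354 bp downstream of the start (chr10:63338496-63338849), and the homecage list had a peak on each side of the start, of 431 bp upstream and 191 bp downstream. The learning peak overlapped the downstream one by 186 bp. Sirt2 had a learning peak of 153 bp inside a homecage peak of 203 bp, also within 1 kb of the start of Nfkbib, so the peak cannot be given to either gene. Sirt3 and Sirt6 had no learning peak and homecage start peaks of 484 and 442 bp, which were also near the starts of Psmd13 and Ankrd24. Of the 11.9% of Sirt2 and its flanks that homecage peaks covered, the largest piece was a peak of 1188 bp inside the gene.

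**Figure D3:**
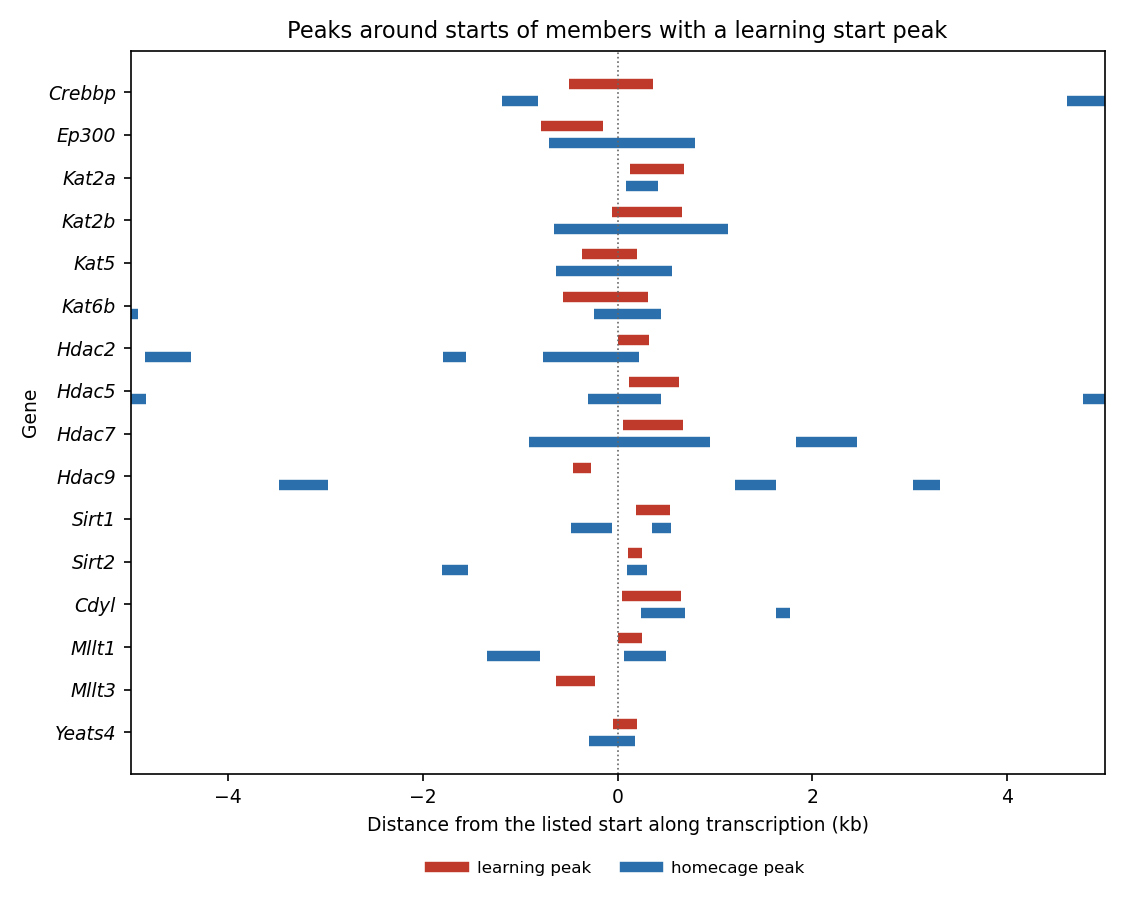
Positions of learning and homecage peaks from 5 kb before to 5 kb after the listed start nearest each learning start peak, along the direction of transcription, for 16 genes; Kat6a has no listed start and is left out. Bars are peaks to scale. The bars of both lists overlap at 13 of these genes, and at Crebbp, Hdac9 and Mllt3 they do not.

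The readers bind or process crotonyl marks. Cdyl encodes a chromodomain protein with a hydratase-like domain that is known to lower histone crotonylation. It had 3 learning peaks, one of 611 bp just downstream of its inner starts (chr13:35741507-35742117), which overlapped a homecage peak of 450 bp by 417 bp, and others of 198 and 298 bp inside the gene without a homecage partner. Its paralogue Cdyl2 had no learning peak and a homecage peak of 1514 bp at a gene end (chr8:116732247-116733760), wider than the homecage peaks of all but Hdac7, Kat2b and Ep300 among the 36 genes.

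Mllt1 (ENL), Mllt3 (AF9), Yeats2 and Yeats4 (GAS41) carry YEATS domains. Mllt1 had a learning peak of 246 bp just downstream of the start, which overlapped a homecage peak of 435 bp by 186 bp. Yeats4 had a learning peak of 242 bp across the start, with 220 bp in common with a homecage peak of 472 bp. Mllt3 had 1 learning peak, of 402 bp (chr4:87806552-87806953), at an inner start 227 kb from the outer one and 11638 bp from the nearest homecage peak. The homecage list instead had peaks of 958 and 793 bp on either side of the outer start. Yeats2 had no learning peak and a homecage start peak of 174 bp.

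Dpf1, Dpf2 and Dpf3 are DPF subunits of BAF chromatin remodelling complexes, and none had a learning start peak. Dpf1 had learning peaks of 146 and 208 bp inside the gene, the former within a homecage peak of 472 bp. Homecage peaks covered 16.1% of Dpf1 and its flanks, the highest share of the 36 genes, although its start, with 31 CpGs before it, had no peak in either list. Dpf2 had a homecage start peak of 571 bp and no learning peak. Dpf3 had 44 homecage peaks, the widest of 1379 bp, and 1 learning peak of 212 bp inside the gene, 3075 bp from the nearest homecage peak.

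Of the 6 acyl-CoA enzymes, 2 had a learning peak in the gene or flanks, beside 30.9% of all protein-coding genes. Acss2, which makes acyl-CoA from free short-chain acids and has been studied in hippocampal memory, had no start peak in either list. It had a learning peak of 313 bp 13169 bp into the gene (chr2:155531056-155531368), which overlapped a homecage peak of 606 bp by 267 bp. Echs1, the enoyl-CoA hydratase that consumes crotonyl-CoA, had a learning peak of 146 bp in a flank, also near the start of Fuom, and a homecage start peak of 703 bp. Acly, which makes acetyl-CoA from citrate, had no learning peak and a homecage start peak of 828 bp.

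Acads oxidises butyryl-CoA to crotonyl-CoA, Acox3 is a peroxisomal acyl-CoA oxidase, and Gcdh makes crotonyl-CoA from glutaryl-CoA. None had a learning peak. Acads had 1 homecage peak of 189 bp, which made it the gene with the lowest homecage coverage, 0.992% of the gene and flanks. Acox3 had 11 homecage peaks, one of 231 bp at the start, with 10.2% of the gene and flanks covered. Gcdh had 2 homecage peaks, the wider of 224 bp, and none at the start.

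Over the 36 genes and their flanks there were 38 learning and 536 homecage peaks. Per 100 kb, that was 1.05 learning and 14.8 homecage peaks, beside 0.854 and 13.7 over all protein-coding genes with their flanks. Without Hdac9 the values were 1.13 and 15.3. The median gene had 1 learning and 8 homecage peaks, beside 0 and 4 over all genes, and homecage peaks covered a median of 5.92% of gene and flanks, beside 5.26%. Learning peaks covered a median of 0.438% of gene and flanks, beside 0% over all genes, most of which had no learning peak.

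**Figure D4:**
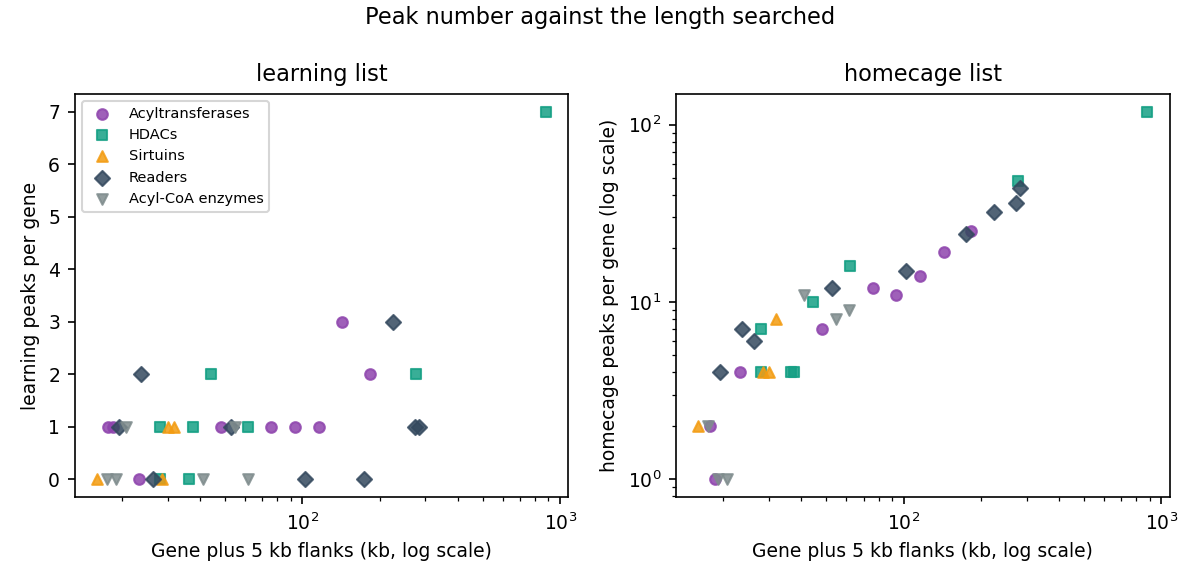
Number of learning peaks (left, linear axis) and homecage peaks (right, log axis) in each gene with its 5 kb flanks, against the length searched in kb (log axis), with a point for each of the 36 genes and a symbol for each role. Homecage counts range from 1 to 118 and are highest in the longest genes, and learning counts lie between 0 and 3 at all genes but Hdac9, which has 7.

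Of the 38 learning peaks, 17 lay at a start, 18 elsewhere inside a gene and 3 in a flank. At the starts, 14 of 17 overlapped a homecage peak by at least 1 bp (82.4%, 56.6 to 96.2%), and inside the genes 5 of 18 did (27.8%, 9.69 to 53.5%). The same contrast was present in all learning peaks of protein-coding genes and their flanks, where 70.7% of 3444 start peaks and 33.9% of 5110 inside peaks overlapped a homecage peak. The 3 start peaks without a partner were those of Crebbp, Hdac9 and Mllt3. Start peaks of the 36 genes had a median width of 512 bp and inside peaks 306 bp, beside 329 and 302 bp over all genes. The part of width in the overlap was not tested. All together, 19 of 38 overlapped (50%), close to the 48.1% of all learning peaks of protein-coding genes and their flanks. Over the whole learning list, with peaks far from genes, it was 43.1%. The share of the 38 was 18.4% when the overlap had to reach 50% of both peaks, and 13.2% with the homecage list shortened to its 16002 widest peaks. No share over all learning peaks is given here for these settings.

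Some learning peaks were very narrow. Of the 38 learning peaks, 4 had the smallest width in the list, 146 bp, those in Crebbp, Kat7, Dpf1 and Echs1, beside 8.90% of the whole list. Chromatin had been sheared to 200 to 500 bp, per the labels, so these peaks are shorter than the stated fragments.

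Along the gene, 10 of 16 learning start peaks with a listed start had their centre downstream of it (62.5%), a share with no interval here. The median offset was 143 bp (quartiles -96 and 353 bp), and 5 of 16 covered a start. Over all genes, 73.0% of 3040 learning start peaks had their centre downstream, with a median of 244 bp, and 21.5% covered a start. Homecage start peaks of the 36 genes had a median offset of 69 bp, with 18 of 31 downstream and 11 of 31 over a start, beside 61.2% and 23.6% of all. At 5 of the 16 genes, Kat5, Hdac7, Hdac9, Cdyl and Mllt3, the start with the learning peak lay over 1 kb inside the annotated gene.

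Starts with many CpGs carried peaks more often. Listed starts of the 36 genes numbered 45, and the 20 with a learning peak had a median of 24.5 CpGs in the 250 bases before the start, beside 14 at the 25 without. Over all 21263 listed starts of protein-coding genes the medians were 19 and 7. Among starts with 20 or more CpGs, 12 of 19 in the crotonylation genes had a learning peak, beside 33.4% of all such starts, and 18 of 19 had a homecage peak, beside 71.3%. Among starts with 10 to 19 CpGs, 5 of 15 had a learning peak, beside 19.7%, and 14 of 15 a homecage peak, beside 58.9%. Below 10 CpGs, 3 of 11 had a learning peak, beside 6.06%, and 2 of 11 a homecage peak, beside 36.4%. Starts of 1 gene that lie close together share peaks, so these starts are not independent.

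**Figure D5:**
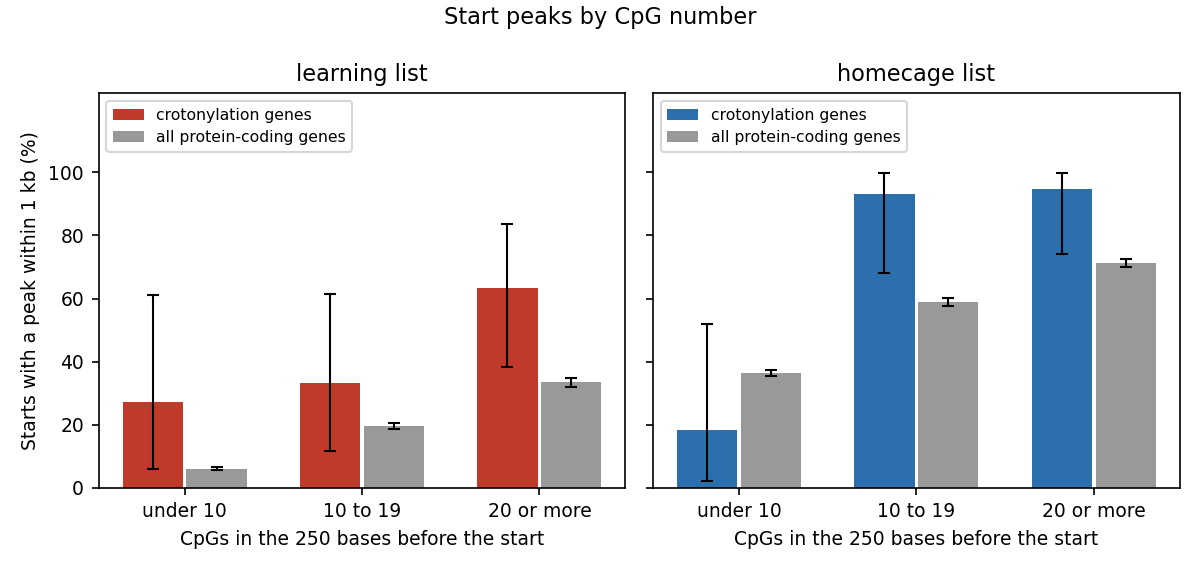
Percent of listed starts with a learning peak (left) or homecage peak (right) within 1 kb, by the number of CpGs in the 250 bases before the start, for the 45 starts of the crotonylation genes (colour) and all 21263 starts of protein-coding genes (grey). Error bars are exact 95% intervals. Both groups rise with CpG number, the learning shares of all starts from 6.06% to 33.4% and those of the crotonylation genes from 27.3% to 63.2%.

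The 250 bases before the 45 starts were also searched on both strands for 4 short motifs. The GC box GGGCGG was present at 29 of 45 starts (64.4%), beside 42.6% of all listed starts. It was at 13 of the 20 starts with a learning peak, a share close to that over the 45. The CCAAT box (CCAAT) was present at 19 of 45 (42.2%), beside 35.4%, and at 7 of those 20, a lower share than over the 45. The TATA box TATAAA was present at 1, the outer start of Hdac9, beside 11.6% of all. The full cyclic AMP response element TGACGTCA was at none of the 45, beside 1.92% of all. These are letter matches in a short window.

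Among 40 further erasers, readers, complex subunits and acyl-CoA enzymes, listed by function, 16 had a learning start peak and 28 a homecage start peak, beside the 16.2% and 53.1% of all protein-coding genes. In the gene or its flanks, 19 of the 40 had a learning and 35 a homecage peak, beside 30.9% and 90.5% of all genes. The bromodomain gene Brd2, whose protein binds acylated histones, had a learning start peak of 896 bp and a homecage start peak of 2542 bp, and Brd3 had a homecage start peak of 1258 bp without a learning peak. Phf10, a BAF subunit gene, had a learning start peak of 1316 bp and a homecage start peak of 1243 bp. The desuccinylase gene Sirt5 had start peaks of 392 and 660 bp. Hadha and Hadhb, which encode the mitochondrial trifunctional protein, share 1 learning peak of 176 bp. The 5 of these genes with no homecage peak, which had no learning peak either, were Ing4 and the 4 genes on chromosome X, namely Hdac6, Hdac8, Taf1 and Pdha1. None of the 36 crotonylation genes lies on that chromosome, while the shares over all protein-coding genes include the genes of chromosomes X and Y. Shares over autosomal genes alone are not given here.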

How the data were processed

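Pan-Kcr ChIP-seq peak lists of 1 learning and 1 homecage library were used, grouped by sample title. The deposited files hold peak positions in bp with no strength, read number or q-value. The peak names in the deposited files give broad calling per library with a p-value limit of 0.01. Trimmomatic, BWA, MACS2 and the build mm10 are named in the submitters' processing notes, without versions or roles. Use of the input libraries as control is not given in the sources used here. Genes and promoter sequences came from RefSeq GRCm38.p6, the assembly mm10 is made from. Peaks were assigned to a gene when they overlapped it or its 5 kb flanks by at least 1 bp, and to a start within 1 kb. The 36 genes and the lists were chosen with earlier results of these data known. All 36 genes are named, with full values for those with a learning start peak, the widest or largest covered share, an unpartnered learning peak, or no peak in a list. For 4 of the 36 genes (Hdac1, Hdac3, Kat6a and Cdyl2) and 4395 of all genes without a listed start, both gene ends were used, which the planned design had not foreseen. The main shares carry exact Clopper-Pearson 95% intervals. The planned stricter q threshold could not be run. Interval code was tested on simulated data. The tools were matplotlib 3.10.9 for figures, scipy 1.17.1 for intervals, and pandas 2.3.3 with numpy 2.4.6 in Python 3.11.15.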

Additional observations from a re-analysis of the deposited data

How the results depend on the processing

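No paired analysis was possible because 1 antibody library stands for each condition, which also leaves no replicate to omit. Of 26 values recomputed for the 5 main counts, 19 stayed within 1.5 times the count or inside the interval and 7 moved beyond it. With peaks of at least 500 bp, 10 genes had a learning peak in the gene or flanks, beside 7.25% of all, 9 a learning start peak and 15 a homecage start peak. With the widest homecage peaks only (884 bp or more), 15 genes had a homecage peak in the gene or flanks, beside 27.0% of all, 8 had one at a start, and 13.2% of the learning peaks overlapped one. An overlap of 50% of both peaks gave 18.4%, and neither of these shares has a value over all learning peaks beside it. Flanks of 0, 1 and 10 kb, start windows of 3 kb, and merging of peaks closer than 1 kb did not move a count that far, nor did listed starts only (16 of 32 genes with a learning start peak) or both gene ends in place of starts (13 of 36), 2 alternatives chosen after seeing the data. Unknown read depth limits every statement about a missing peak. The calling limit without q-values or a stated control limits every statement about a single peak that is present.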
